A study of Mus musculus with 18 samples.

Results

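The matrix metalloproteinases and their inhibitors in these data were 9 genes, the 7 metalloproteinases *Mmp2*, *Mmp8*, *Mmp9*, *Mmp12*, *Mmp13*, *Mmp14* and *Mmp19* and the 2 tissue inhibitors *Timp1* and *Timp2*. They were chosen by name from the 20615 genes of the deposited table, with earlier results of these data known, and all 9 passed the filter on low counts. Counts of members set beside shares of all genes below are thus descriptions. The cells were bone marrow-derived macrophages (BMDMs), macrophages grown from marrow in medium with 20% L929 supernatant as a source of M-CSF until day 7. The mice were 7 to 12 weeks old and were either C57BL/6 (B6) or C57BL/6.NOD-*Aec1Aec2* (SjSS), a B6 line that carries the NOD intervals *Idd3* (*Aec1*) and *Idd5* (*Aec2*) and serves as a model of Sjögren's syndrome. BMDMs of each strain were left untreated (control), given apoptotic cells (ACs) or given CpG, with 3 samples in each of the 6 groups. ACs were thymocytes killed with dexamethasone, 5 for each BMDM, left for 2 h and washed off, after which the labels give a further 3 h, and CpG, an oligonucleotide ligand of endosomal Toll-like receptors, was used at 1 µM for 6 h. The thymocytes were taken from mice of both strains, and which of them the sequenced BMDMs received is not stated. If each strain received its own, BMDM strain and thymocyte strain cannot be told apart in the strain differences with ACs. All treatments were made in medium with 5% L929 supernatant. The authors give 3 mice of each strain for these BMDMs, so samples of different groups within a strain may share a mouse. Whether samples with the same number came from 1 mouse is not stated, and the main tests treated all samples as separate. The p-values measure the spread between these samples.

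Matrix metalloproteinases (MMPs) are zinc-dependent enzymes that cleave collagen, elastin and other matrix proteins, and also release or trim cytokines and chemokines. Most are secreted as inactive proenzymes and must be cleaved before they act, and tissue inhibitors of metalloproteinases (TIMPs) bind the active site and block them. Macrophages are a main source of several MMPs in inflamed tissue, where inflammatory signals raise their transcription. The values here are mRNA levels, and enzyme activity was not measured.

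The members lie on mm10 chromosomes 8 (*Mmp2*), 2 (*Mmp9*), 14 (*Mmp14*), 10 (*Mmp19*), X (*Timp1*) and 11 (*Timp2*), with *Mmp13*, *Mmp12* and *Mmp8* in that order on chromosome 9. None lies on chromosome 1 or 3. The 3 genes of chromosome 9 belong to a cluster of MMP genes, in which the table also holds *Mmp3* and *Mmp10* between *Mmp12* and *Mmp8*, and *Mmp27* after *Mmp8*. *Mmp13* spans chr9:7272514-7283334, *Mmp12* chr9:7344381-7369500 and *Mmp8* chr9:7558429-7568487, all on the plus strand. *Mmp14* spans chr14:54431612-54441266 and *Mmp9* chr2:164940780-164955851.

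RefSeq promoters (GRCm38.p6) of 6 of the 9 members were used here. The 120 bases before the start site are shown for *Mmp13*, *Mmp14*, *Mmp12* and *Timp1*, since each was called in at least 1 comparison below, and their motifs differed. Capitals mark motifs found by a search of both strands. These are the AP-1 motif, spelled TGANTCA, the promoter element known as the TATA box, spelled TATAAA, and the GC box, spelled GGGCGG.
*Mmp13*, chr9:7272394-7272513, plus strand: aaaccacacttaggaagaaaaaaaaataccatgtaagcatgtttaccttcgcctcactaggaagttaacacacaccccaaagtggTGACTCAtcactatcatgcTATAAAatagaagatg
*Mmp14*, chr14:54431478-54431597, plus strand: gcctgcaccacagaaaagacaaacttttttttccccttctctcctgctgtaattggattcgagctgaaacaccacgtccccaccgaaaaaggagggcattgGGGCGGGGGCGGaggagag
*Mmp12*, chr9:7344277-7344396, plus strand: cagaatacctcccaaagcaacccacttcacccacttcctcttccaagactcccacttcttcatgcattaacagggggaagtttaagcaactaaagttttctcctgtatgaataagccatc
*Timp1*, chrX:20870046-20870165, plus strand: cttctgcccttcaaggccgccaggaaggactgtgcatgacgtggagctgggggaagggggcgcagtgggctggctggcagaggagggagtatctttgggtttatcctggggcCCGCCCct

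*Mmp13*, which encodes collagenase-3, had the AP-1 motif 35 bases and the TATAAA box 16 bases before the RefSeq start. *Mmp14*, which encodes the membrane-anchored MT1-MMP, had neither and held GC boxes 19 and 13 bases before its start, and *Timp1* had a GC box 8 bases before its start. No motif searched was found before the first start of *Mmp12*, nor before that of *Mmp8*, while the second *Mmp12* start had TGAGTCA 44 bases before it and *Timp2* a GC box 37 bases before its start. Over the 250 bases before the start of 32851 RefSeq promoters, 6.75% held the AP-1 motif, 12.4% TATAAA and 32.7% the GC box. The search also covered the NF-kB motif (3.9% of promoters) and TTCNNNGAA (7.02%), of which the members' 7 promoters held none in 250 bases. A match describes letters and is no evidence of binding.

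Totals ran from 30.7 to 57.1 M estimated counts in a sample, with a median of 47.9 M. Levels are given as CPM, counts scaled by library total and TMM factor, and the groups were compared with edgeR's quasi-likelihood test over 15789 genes with Benjamini-Hochberg adjustment. A gene passed at an adjusted p under 0.05, and was called when its log2 fold change was also over 1.3 in size. The 8 macrophage markers were expressed in every group, with a summed level from 15105 to 23748 CPM. The 12 fibroblast and stromal markers had a summed level from 55.4 to 175 CPM in the 9 B6 samples and from 189.9 to 296.7 CPM in the 9 SjSS samples. *Col1a2* was the highest of them, and *Lum* was listed at 0 in control B6, AC treated B6 and control SjSS samples. The sum did not overlap between the strains. Much of it was *Col1a1* and *Col1a2*, at 73.2 and 101.5 of 236.1 CPM in replicate 1 of AC treated SjSS. With ACs, *Col1a1*, *Col1a2*, *Dcn*, *Postn*, *Cdh11* and *Loxl1* passed as higher in SjSS. *Col3a1* (log2 -0.31), *Col6a3* (-0.28), *Pdgfra* (0.40), *Pdgfrb* (0.35) and *Thy1* (0.41) did not pass. The sum is given again beside *Timp1*, *Timp2* and *Mmp2*, for which fewer stromal cells and less RNA in each cannot be told apart. Of the 12 neutrophil markers, the table held 8, and *Ly6g*, *Mpo*, *Elane* and *Retnlg* were not analysed here. Their summed level, most of it *Csf3r*, was 113.4 to 129.0 CPM in control, 83.1 to 99.4 CPM in AC treated and 211 to 231 CPM in CpG treated B6 samples, and 88.8 to 102 CPM, 112 to 118 CPM and 136 to 161 CPM in SjSS. The granule genes among them (*Ltf*, *Camp*, *Ngp* and *Prtn3*) summed to 0.166 to 2.78 CPM. The table held 11 of 12 thymocyte and T cell markers, of which *Cd4* was the highest. They summed to 7.91 to 9.80 CPM in control and 4.37 to 4.84 CPM in AC treated B6 samples, and to 10.1 to 11.5 CPM in control and 13.2 to 18.04 CPM in AC treated SjSS samples. *Cd4* itself fell with ACs in B6 (log2 -1.27) and rose in SjSS (0.44). The median marker went from 0.0118 CPM in control to 0.0945 CPM with ACs in B6, and from 0.0341 to 0.0523 CPM in SjSS. *Trac*, *Rag1* and *Dntt* were listed at 0 in control B6, and no marker was with ACs in B6. The part of thymocyte RNA in the AC results was not tested.

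**Figure D1:**
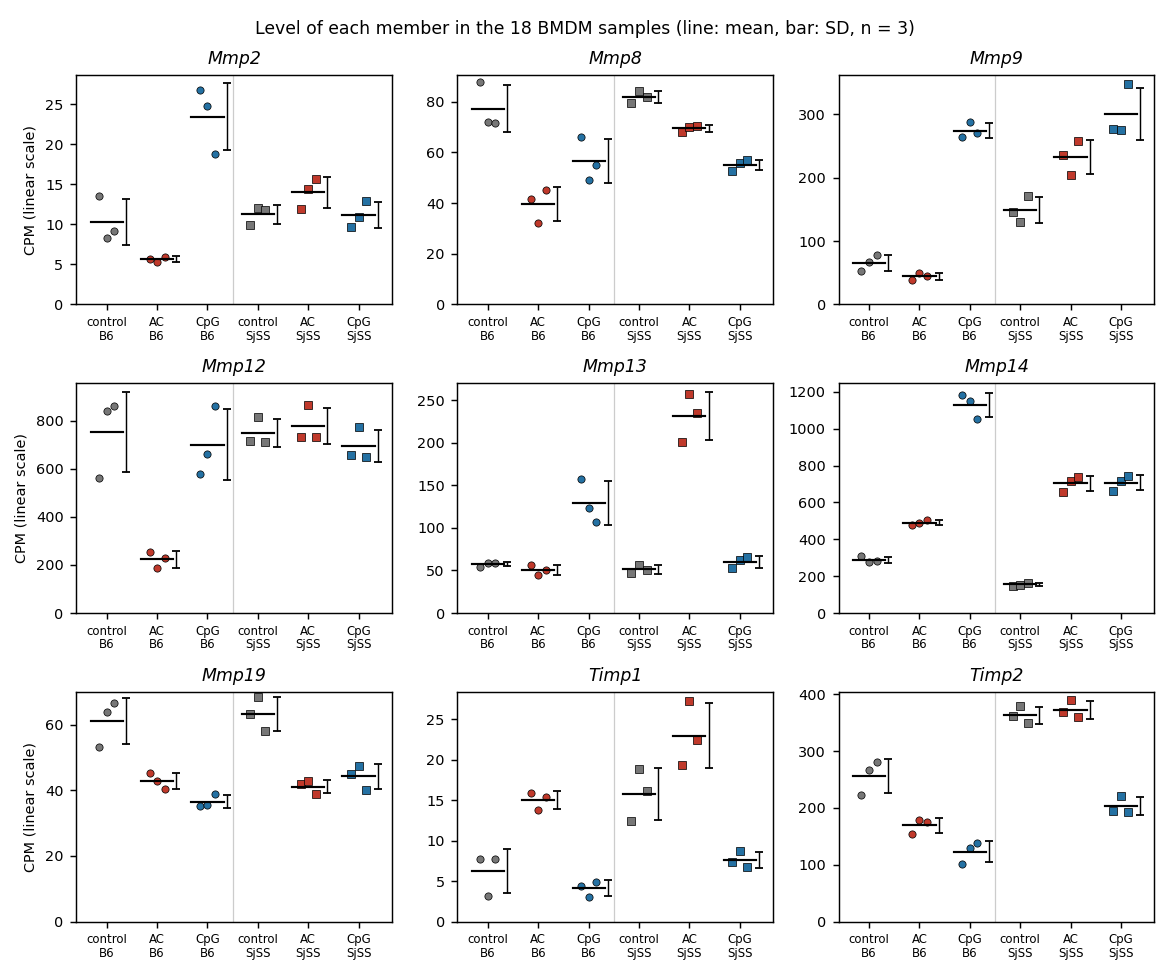
Level of each member in CPM (linear scale, axis from 0) in the 18 samples, with 1 point for each sample, a line for the mean and a bar for the SD (n = 3); circles are B6 and squares SjSS, grey control, red AC and blue CpG. *Mmp12* was lowest in AC treated B6 BMDMs (187 to 255 CPM), *Mmp13* was highest in AC treated SjSS BMDMs (201 to 257 CPM), and *Mmp14* was above the controls of its own strain in all 12 treated samples.

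Per kilobase of exon, the scale on which genes can be compared, *Mmp12* (macrophage elastase) was the highest member in control BMDMs of both strains, at 104 ± 23.1 CPM per kb (SD, n = 3) in B6 and 103 ± 8.19 in SjSS. *Mmp14* was the highest in all 4 treated groups, with 189.5 ± 11.1 CPM per kb in CpG treated B6, 119 ± 7.17 in CpG treated SjSS, 118 ± 6.74 in AC treated SjSS and 82.4 ± 2.17 in AC treated B6. *Timp2* came second in both controls, at 65.7 ± 7.80 CPM per kb in B6 and 93.2 ± 3.93 in SjSS. *Mmp2* (gelatinase A) was the lowest member in 5 groups, between 1.68 and 4.15 CPM per kb, while in CpG treated B6 *Timp1*, at 4.62 ± 1.10 CPM per kb, was under *Mmp2*, at 6.96 ± 1.23. In AC treated SjSS BMDMs the *Mmp14* and *Mmp12* (108 ± 10.5 CPM per kb) levels were within their spread of each other, so their order there is not settled.

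**Figure D2:**
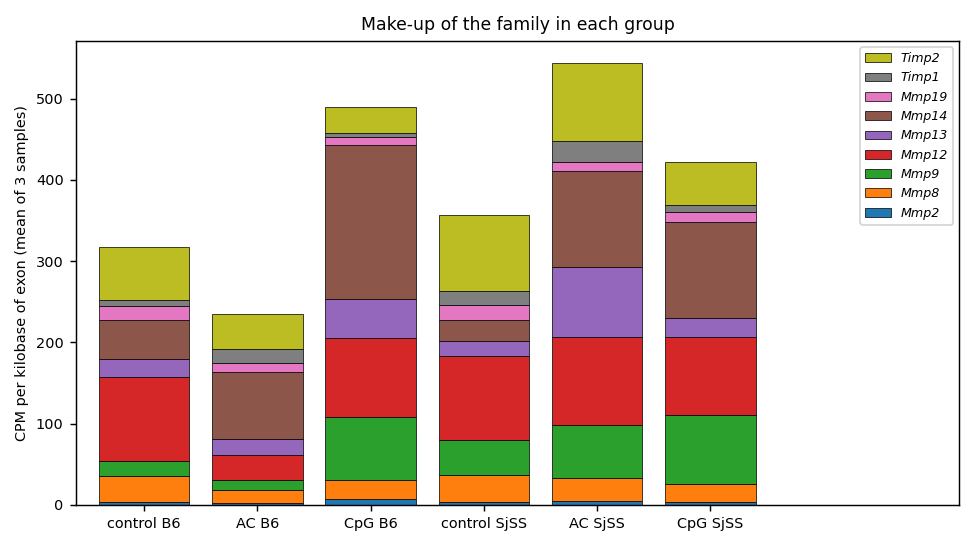
Stacked bars of the mean level of each member per kilobase of exon (CPM per kb, n = 3 samples in each of the 6 groups, no error bar drawn). *Mmp14* grew from 48.7 CPM per kb in control B6 and 26.0 in control SjSS to 189.5 and 119 with CpG, while *Mmp12* held 104 and 103 in the controls and 30.8 in AC treated B6.

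*Mmp14* rose in all 4 responses. Its protein sits at the cell surface, cleaves collagen and activates the proenzyme of *Mmp2*. In B6 it had 308, 278 and 283 CPM in control, 479, 489 and 505 CPM in AC treated and 1183, 1150.0 and 1055 CPM in CpG treated samples. In SjSS it had 148, 153 and 164 CPM in control, 659, 715 and 737 CPM in AC treated and 661, 716 and 746 CPM in CpG treated samples. Every treated sample lay above every control sample, and the B6 controls lay above the SjSS controls, so that the strains started apart. With ACs *Mmp14* rose 1.69-fold in B6 (log2 fold change 0.76 ± 0.06 SE, edgeR adjusted p = 2.71e-08) and 4.54-fold in SjSS (2.18 ± 0.07, adjusted p = 2.48e-15). The rise was larger in SjSS by 1.42 ± 0.09 on the log2 scale (edgeR interaction, adjusted p = 6.80e-10). With CpG the rises were 3.89-fold in B6 and 4.57-fold in SjSS (log2 1.96 ± 0.07 and 2.19 ± 0.07), and their difference of 0.23 (95% interval 0.04 to 0.42) did not pass (edgeR adjusted p = 0.149). ACs and CpG gave almost the same level in SjSS, at 704 ± 40.2 and 708 ± 42.7 CPM (SD, n = 3), while in B6 the AC level, 491 ± 12.9 CPM, lay well under the CpG level of 1129 ± 66.2 CPM.

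*Mmp13* had its highest levels in AC treated SjSS and CpG treated B6 BMDMs. In B6 it had 54.6, 58.9 and 58.6 CPM in control, 56.5, 45.0 and 50.6 CPM with ACs and 158, 123 and 108 CPM with CpG. In SjSS it had 46.6, 56.4 and 50.7 CPM in control, 201, 257 and 236 CPM with ACs and 52.9, 61.7 and 66.4 CPM with CpG. All 3 AC treated SjSS samples stood above all other samples, the CpG treated B6 samples came next, and the other 4 groups lay between 45.0 and 66.4 CPM. The control levels of the strains overlapped (edgeR adjusted p = 0.39). With ACs *Mmp13* rose 4.52-fold in SjSS (log2 2.18 ± 0.13 SE, edgeR adjusted p = 2.65e-11), and in B6 its log2 fold change of -0.18 (95% interval -0.44 to 0.08) did not pass. With CpG it rose 2.26-fold in B6 (log2 1.18 ± 0.12, edgeR adjusted p = 1.31e-07), and in SjSS the value of 0.24 (95% interval -0.02 to 0.50) did not pass. Both differences in response passed: that with ACs was 2.35 ± 0.18 (edgeR interaction, adjusted p = 5.81e-09) and that with CpG was -0.94 ± 0.18 (adjusted p = 0.00346).

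*Mmp12*, which cleaves elastin and is typical of macrophages, passed the strain test with ACs and missed it in the other 2 conditions. In B6 it had 562, 840.3 and 860.1 CPM in control, 255, 187 and 227 CPM with ACs and 577, 661 and 864 CPM with CpG. In SjSS it had 716, 817 and 713 CPM in control, 734, 866 and 734 CPM with ACs and 659.8, 773 and 652 CPM with CpG. The 3 AC treated B6 samples were the lowest of the 18 and all others lay between 562 and 866 CPM. *Mmp12* was 3.38-fold lower with ACs in B6 (log2 -1.76 ± 0.16 SE, edgeR adjusted p = 6.36e-08). Its log2 fold change in SjSS was 0.06 (95% interval -0.27 to 0.38), or -0.36 with library totals in place of TMM scaling, and passed with neither (adjusted p = 0.781 and 0.0502). The difference between the strains was 1.81 ± 0.22 (edgeR interaction, adjusted p = 2.61e-06). Neither response to CpG passed, with log2 fold changes of -0.11 in each strain.

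*Mmp9*, or gelatinase B, which cleaves denatured collagen and several chemokines, was higher in SjSS before any treatment. It had 52.6, 66.9 and 77.7 CPM in control B6 and 146, 129.8 and 172 CPM in control SjSS samples, a 2.27-fold difference with no overlap (log2 1.18 ± 0.13 SE, edgeR adjusted p = 6.17e-06). With ACs it had 38.8, 50.1 and 45.0 CPM in B6 and 236, 205 and 257 CPM in SjSS samples. It fell in B6 (log2 -0.56 ± 0.14, edgeR adjusted p = 0.00284) and rose in SjSS (0.64 ± 0.13, adjusted p = 3.59e-04), so that the strains moved apart to 5.21-fold. The opposite directions differed by 1.2 ± 0.19 (edgeR interaction, adjusted p = 5.57e-05). With library totals in place of TMM scaling the rise in SjSS was 0.23 and did not pass (adjusted p = 0.135), whereas the fall in B6 and the interaction did. With CpG it reached 265, 287 and 271 CPM in B6 and 277, 276 and 348 CPM in SjSS samples. These overlapped, and the strain difference of 0.13 (95% interval -0.15 to 0.40) did not pass. The rise to that level was 4.18-fold from the lower B6 control and 2.01-fold from the higher SjSS control, and the difference was -1.06 ± 0.19 on the log2 scale (edgeR interaction, adjusted p = 0.00227). The neutrophil marker sum was also lower with ACs in B6 and higher in the other 3 responses, as was the sum of the granule genes (0.501 to 0.657 CPM in control, 0.227 to 0.357 CPM with ACs and 1.15 to 2.78 CPM with CpG in B6, and 0.166 to 0.381, 0.543 to 1.01 and 1.06 to 1.28 CPM in SjSS). The first sum was mostly *Csf3r*, and other genes of the list did not all follow it. *Prtn3* fell with CpG in B6 (log2 -3.67, edgeR adjusted p = 0.00269), where *Camp* rose (5.36). With ACs *S100a8* passed in neither strain (-0.16 in B6 and -0.33 in SjSS). *S100a9*, at just 0.352 to 0.584 CPM in control B6, fell with ACs in B6 as the sum did (-3.94, edgeR adjusted p = 0.0116). In SjSS its value of 2.48 did not pass. *Camp*, which had no counts in control SjSS, rose with ACs there (6.83), so the size of that rise is not defined well. The part of these genes in the *Mmp9* and *Mmp8* values was not tested.

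*Mmp8* (neutrophil collagenase) and *Mmp19* were called in no comparison. *Mmp8* had 71.6 to 88.0 CPM in control B6 and 79.6 to 84.2 CPM in control SjSS samples, and 32.1 to 45.3 CPM and 67.9 to 70.4 CPM with ACs. It fell 1.95-fold with ACs in B6 (log2 -0.96 ± 0.11 SE, edgeR adjusted p = 1.39e-06). In SjSS the log2 fold change was -0.24 (adjusted p = 0.074), and the responses differed by 0.73 ± 0.16 (edgeR interaction, adjusted p = 0.0011). With CpG *Mmp8* fell in both strains, by 0.45 in B6 and by 0.57 in SjSS on the log2 scale. With library totals in place of TMM scaling, *Mmp8* fell with ACs in SjSS too (-0.65) and its AC interaction did not pass (adjusted p = 0.051). *Mmp19*, an MMP with a broad set of matrix substrates, fell in all 4 responses, by 0.51 with ACs and by 0.74 with CpG in B6, and by 0.62 and by 0.51 in SjSS on the log2 scale. Its levels were 53.3 to 68.4 CPM in the 6 control samples and 35.2 to 47.5 CPM in the 12 treated samples, with no overlap. Neither of its interactions passed (edgeR adjusted p = 0.536 with ACs and 0.298 with CpG), though with library totals that with ACs did (-0.45, adjusted p = 0.0041). *Mmp19* overlaps *Tmem198b* on the other strand (5.77 to 14.2 CPM), and whether the authors counted by strand is not given in the sources used here.

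*Mmp2*, a gelatinase made largely by stromal cells in tissue, had 13.5, 8.24 and 9.15 CPM in control B6 and 9.87, 12.1 and 11.7 CPM in control SjSS samples. With ACs it had 5.68, 5.30 and 5.97 CPM in B6 and 11.9, 14.4 and 15.6 CPM in SjSS, and with CpG 26.7, 24.8 and 18.8 CPM in B6 and 9.63, 10.9 and 12.9 CPM in SjSS. The controls overlapped, and the B6 samples lay under the SjSS samples with ACs and above them with CpG. In B6 it fell with ACs (log2 -0.87 ± 0.17 SE, edgeR adjusted p = 5.43e-04) and rose with CpG (1.18 ± 0.17, adjusted p = 4.79e-06). In SjSS neither response passed, at 0.32 (95% interval -0.03 to 0.67) and -0.01 (-0.36 to 0.35). Both interactions passed, at 1.19 ± 0.24 with ACs (edgeR adjusted p = 6.76e-04) and -1.19 ± 0.24 with CpG (adjusted p = 0.00514). The stromal marker sum was 60.4 to 175 CPM in control, 110.7 to 156.8 CPM in AC treated and 55.4 to 133.2 CPM in CpG treated B6 samples. In SjSS it was 204.6 to 288.4 CPM in control, 236.1 to 296.7 CPM with ACs and 189.9 to 247.6 CPM with CpG. The sum was thus higher in SjSS in every condition, whereas *Mmp2* was higher there with ACs, overlapped in control and was lower with CpG. In B6 the sum overlapped between control and CpG treated samples, while *Mmp2* rose. The part of stromal cells in the *Mmp2* differences was not tested.

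**Figure D3:**
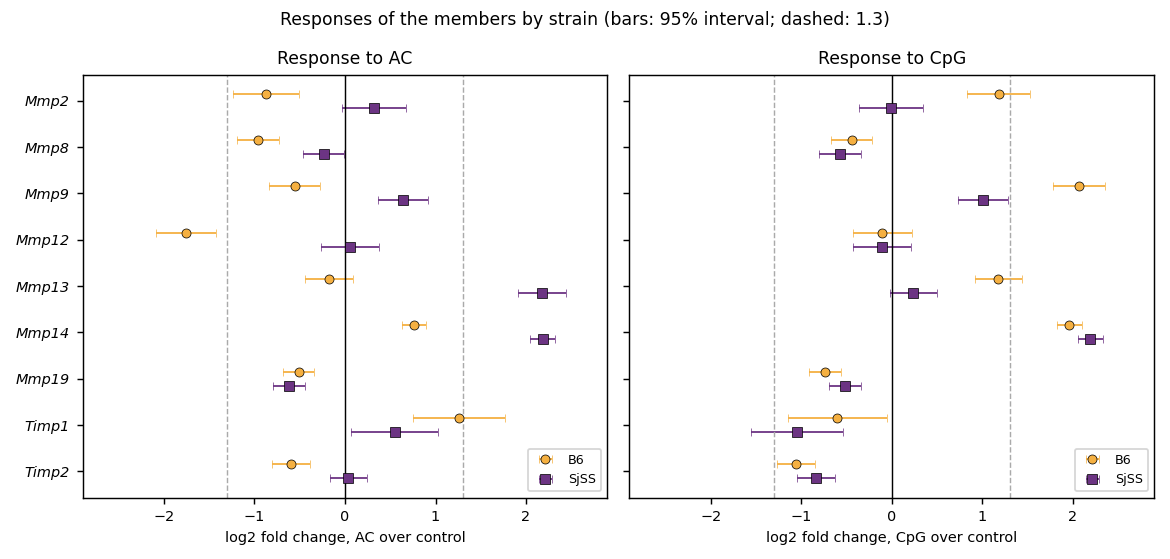
log2 fold change of each member against control of the same strain, with ACs (left) and CpG (right); orange circles are B6, purple squares SjSS, bars the 95% interval from edgeR (n = 3 samples in each group) and dashed lines the threshold of 1.3. With ACs the intervals of *Mmp2*, *Mmp8*, *Mmp9*, *Mmp12*, *Mmp13*, *Mmp14* and *Timp2* lie apart between the strains, and *Mmp13* reads -0.18 in B6 and 2.18 in SjSS.

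The inhibitors *Timp2* and *Timp1* moved in opposite directions with ACs in B6. *Timp2*, which blocks MMPs and also takes part in the activation of the *Mmp2* product by MT1-MMP, had 222, 266 and 280.1 CPM in control B6 and 362, 379 and 349 CPM in control SjSS samples. With ACs it had 154, 179 and 174 CPM in B6 and 368, 390.2 and 360.0 CPM in SjSS, and with CpG 102, 129 and 138 CPM in B6 and 195, 221 and 193 CPM in SjSS. All SjSS samples lay above all B6 samples of the same condition. The strain difference was 1.42-fold in control (edgeR adjusted p = 0.00147), 2.21-fold with ACs (adjusted p = 1.90e-08) and 1.65-fold with CpG (adjusted p = 4.01e-05). *Timp2* fell with CpG in both strains, 2.08-fold in B6 and 1.79-fold in SjSS, and with ACs in B6 (log2 -0.60 ± 0.10 SE, edgeR adjusted p = 8.85e-05). The AC value in SjSS was 0.04 with TMM scaling, where it did not pass, and -0.37 with library totals (adjusted p = 0.00248). The AC interaction of 0.64 ± 0.14 (edgeR adjusted p = 0.00138) was 0.30 with library totals (adjusted p = 0.088). With TMM scaling, *Mmp14* rose and *Timp2* fell in the same samples in 3 of the 4 responses, the exception being ACs in SjSS, where *Mmp14* rose and *Timp2* did not pass.

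*Timp1*, an inhibitor induced by cytokines in many cell types, had 7.78, 3.13 and 7.78 CPM in control B6 and 12.4, 18.9 and 16.1 CPM in control SjSS samples. With ACs it had 15.9, 13.8 and 15.4 CPM in B6 and 19.3, 27.2 and 22.4 CPM in SjSS, and with CpG 4.41, 3.01 and 4.89 CPM in B6 and 7.38, 8.72 and 6.74 CPM in SjSS. The SjSS samples were the higher ones in each condition, and the AC treated samples the highest in each strain. *Timp1* was 2.5-fold higher in SjSS without treatment (log2 1.32 ± 0.24 SE, edgeR adjusted p = 8.03e-04). Without replicate 2 of control B6, which had the lowest *Timp1* among the controls and a stromal marker sum of 60.4 CPM, the value was 1.01, and without replicate 2 of control SjSS it was 1.18, so that each time the gene passed but was no longer called. It rose with ACs 2.39-fold in B6 (log2 1.26 ± 0.24, edgeR adjusted p = 3.77e-04). In SjSS the rise of 0.55 ± 0.23 was at the threshold (edgeR adjusted p = 0.049) and did not pass with DESeq2 (0.091), with library totals (0.13, adjusted p = 0.632), or without 4 of the 6 samples in turn. With CpG it fell in SjSS (log2 -1.05 ± 0.24, edgeR adjusted p = 0.00116) and did not pass in B6 (-0.60, adjusted p = 0.055), where it passed without replicate 2 of control B6 (-0.91, adjusted p = 5.85e-04) and with library totals (-0.79, adjusted p = 0.0162).

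*Timp1* spans chrX:20870166-20874736 inside *Syn1*, which runs on the other strand. Gene spans were compared here and exons were not, and whether the authors counted by strand is not given in the sources used here. *Syn1*, a synapsin gene of neurons, was listed at 13.4 CPM (mean, 9.11 to 16.0) in control and 41.6 CPM (38.5 to 44.3) in AC treated B6, and at 22.2 CPM (21.5 to 23.3) in control and 23.3 CPM (22.6 to 23.6) in AC treated SjSS samples. The stromal marker sum was 60.4 to 175 CPM in control B6, 204.6 to 288.4 CPM in control SjSS, 110.7 to 156.8 CPM in AC treated B6 and 236.1 to 296.7 CPM in AC treated SjSS samples. In both strains it overlapped between AC treated and control samples. Stromal cells and strain cannot be told apart in the strain differences of *Timp1* and *Timp2*, and the part of *Syn1* reads in the *Timp1* values was not tested.

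**Figure D4:**
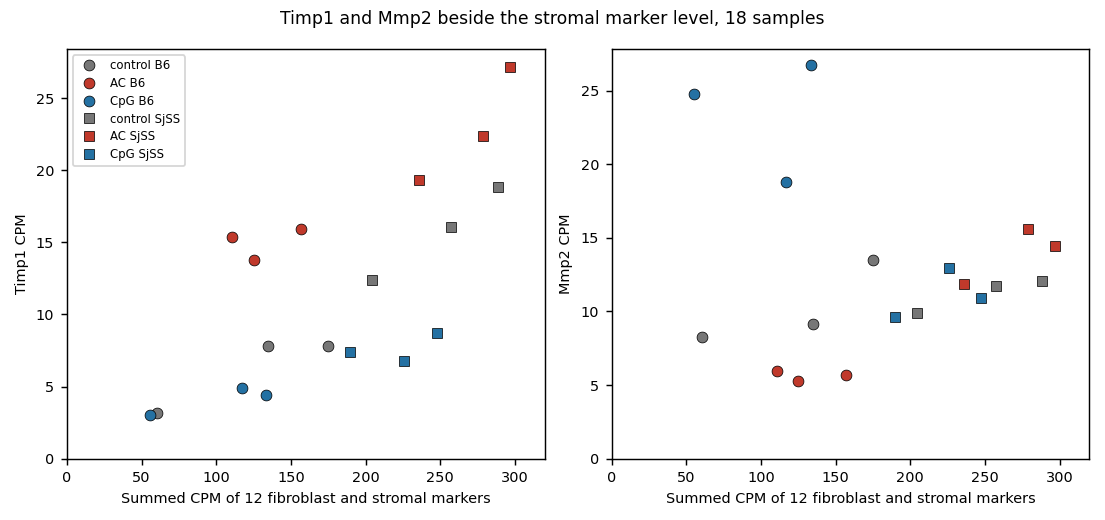
*Timp1* (left) and *Mmp2* (right) in CPM against the summed CPM of the 12 fibroblast and stromal markers in the 18 samples; circles are B6 and squares SjSS, grey control, red AC and blue CpG. The SjSS samples all lie to the right (189.9 to 296.7 CPM) of the B6 samples (55.4 to 175 CPM), and at similar sums the AC treated samples hold more *Timp1* than the CpG treated ones, while *Mmp2* is highest in CpG treated B6 samples at sums of 55.4 to 133.2 CPM.

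Between untreated strains, 3 members passed as higher in SjSS (*Mmp9*, *Timp1* and *Timp2*), beside 9.04% of all genes tested, and 1 passed as lower (*Mmp14*), beside 10.6%. *Timp1* alone was called, where 1.3% of genes were called higher and 0.716% lower. With ACs 8 of 9 members passed as higher in SjSS, *Mmp19* being the exception (log2 -0.06, 95% interval -0.24 to 0.12), beside 24.0% of genes that passed as higher and 25.5% as lower. Of these, 4 were called (*Mmp9*, *Mmp13*, *Mmp12* and *Mmp2*), beside 6.24% called higher and 2.69% lower. The median log2 difference of all 9 members was 1.14, and that of all genes tested was -0.05. *Timp1* was among the 8 at a log2 difference of 0.61 (edgeR adjusted p = 0.034), and did not pass with DESeq2 (adjusted p = 0.063) or library totals (0.31), with which *Mmp19* passed as lower (-0.36). *Mmp2*, at 1.31, lay just past the threshold and was 1.01 with library totals, where it passed but was not called. With CpG the members split, as 3 passed as higher in SjSS (*Timp1*, *Timp2* and *Mmp19*; 10.2% of genes) and 3 as lower (*Mmp13*, *Mmp2* and *Mmp14*; 9.57%), and 0 were called by edgeR or DESeq2, beside 1.82% of genes called higher and 0.792% lower. The same 6 had an unadjusted p under 0.05. *Mmp13* was 2.15-fold and *Mmp2* 2.10-fold lower in SjSS there, and *Mmp14* 1.60-fold lower. The sign of the strain difference was thus opposite between ACs and CpG for *Mmp2*, *Mmp13* and *Mmp14*, each of which passed in both.

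**Figure D5:**
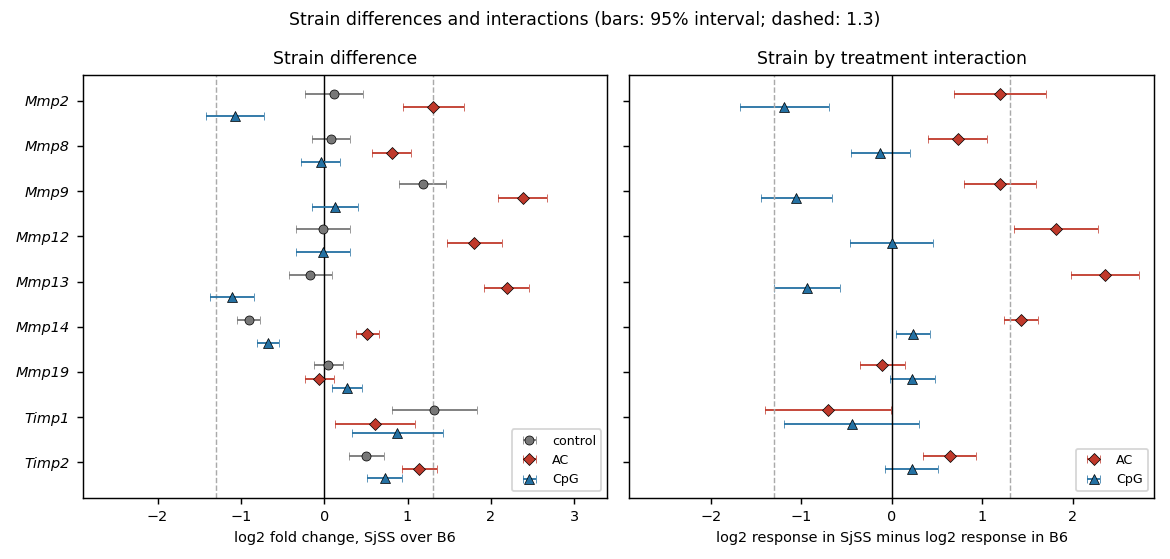
Left, log2 fold change of each member in SjSS over B6 in control (grey circles), with ACs (red diamonds) and with CpG (blue triangles); right, the difference of the log2 response between the strains for each treatment. Bars are 95% intervals from edgeR (n = 3 samples in each group) and dashed lines the threshold of 1.3. The AC values lie right of 0 for every member except *Mmp19* in the left panel. In the right panel *Mmp2*, *Mmp9* and *Mmp13*, whose interactions passed with both treatments, lie on opposite sides of 0 for the 2 treatments. *Mmp8*, *Mmp12* and *Mmp19* do so too, but did not pass with both.

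For the responses within a strain, the counts of members were as follows. With ACs in B6, 2 passed as higher and 6 as lower, beside 20.0% and 18.3% of genes, and 1 was called lower (*Mmp12*), beside 2.04% called lower and 2.43% higher. With ACs in SjSS, 4 passed as higher and 1 as lower, beside 28.6% and 29.4%, and 2 were called higher (*Mmp13* and *Mmp14*), beside 7.09% called higher and 5.83% lower. With library totals the balance in SjSS turned to 2 higher (*Mmp13* and *Mmp14*) and 3 lower (*Mmp19* at -1.03, *Mmp8* at -0.65 and *Timp2* at -0.37). With CpG in B6, 4 passed as higher and 3 as lower, beside 28.1% and 29.8%, and 2 were called higher (*Mmp9* and *Mmp14*), beside 5.86% called higher and 6.88% lower. With CpG in SjSS, 2 passed as higher and 4 as lower, beside 27.8% and 26.4%, and 1 was called higher (*Mmp14*), beside 4.81% called higher and 4.45% lower. Of the AC interactions, 7 passed, all with the higher response in SjSS under TMM scaling, beside 19.6% of genes that passed in that direction and 18.3% in the other, and 3 were called (*Mmp13*, *Mmp12* and *Mmp14*), beside 4.76% and 2.77%. With library totals 7 passed as well, 5 with the higher response in SjSS and 2 with the lower (*Mmp19* at -0.45 and *Timp1* at -1.05, adjusted p = 0.0157). The median AC interaction of the 9 members was 1.19, and that of all genes was -0.01. The CpG interactions of 3 members passed (*Mmp2*, *Mmp9* and *Mmp13*), all with the lower response in SjSS, beside 2.62% of genes, with 3.23% in the other direction. By edgeR and by DESeq2, 0 were called, beside 0.285% of genes with the higher and 0.329% with the lower response in SjSS, and 4 had an unadjusted p under 0.05. These comparisons share control samples within a strain, so they are not separate lines of evidence.

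Scaling moved all genes together. The TMM factors were 0.833 to 0.838 in AC treated SjSS samples and 0.942 to 1.13 in the others, and with library totals the median of all genes shifted to -0.43 in the AC response of SjSS and to -0.35 in the strain difference with ACs and in the AC interaction. The share of called genes that were higher changed from 54.9% to 29.7%, from 69.9% to 45.9% and from 63.3% to 35.8% in these 3 comparisons. For the CpG responses it changed from 46.0% to 35.1% in B6 and from 51.9% to 41.9% in SjSS. *Mmp13* and *Mmp14* in the AC response of SjSS remained called under it, at 1.76 and 1.77, and *Mmp12* and *Mmp13* in the AC interaction at 1.47 and 2.01, while the AC interaction of *Mmp14* was 1.08 and no longer called.

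Of the 19 other MMPs and inhibitors listed, the table held 13, of which 10 were tested, and with ACs in SjSS 3 passed, all higher, beside 28.6% of all genes. In B6 2 passed as higher and 1 as lower, beside 20.0% and 18.3%. *Mmp25*, a membrane-anchored MMP of leukocytes, had 3 counts over the 3 control B6 samples, 32 with ACs and 171 with CpG, and 14 counts in control SjSS, 344 with ACs and 68 with CpG. Its level was 2.65 ± 0.368 CPM in AC treated and 0.0888 ± 0.0681 CPM in control SjSS (log2 4.75 ± 0.46 SE, edgeR adjusted p = 3.62e-08), and 1.31 ± 0.339 CPM in CpG treated B6. It thus had its highest levels in the same groups as *Mmp13*, AC treated SjSS and CpG treated B6, but at a few CPM or less, and its AC interaction did not pass (1.36, adjusted p = 0.462). *Mmp28* rose with ACs in SjSS, to 0.599 ± 0.182 CPM from 0.0927 ± 0.0339 (log2 2.60 ± 0.60, edgeR adjusted p = 0.00103). *Timp3*, an inhibitor bound to the matrix, was called higher in SjSS in all 3 conditions, at 51.6 ± 11.8 CPM in control SjSS and 14.3 ± 6.13 CPM in control B6 (log2 1.84 ± 0.25, edgeR adjusted p = 4.31e-05). The stromal marker sum differed in the same direction. *Timp3* was named after its values were seen, as was *Mmp27*, the last gene of the chromosome 9 cluster. *Mmp27* fell with ACs in B6 (-0.66, adjusted p = 0.00573) and did not pass in SjSS (-0.02). Of the other tested genes of the cluster, *Mmp8* and *Mmp12* fell with ACs in B6 while *Mmp10* (-0.12) and *Mmp13* (-0.18) did not pass.

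MMP proenzymes are activated by furin-like convertases inside the cell and by the plasminogen system outside it. Of 11 tested genes of this list, 6 passed as higher and 1 as lower with ACs in SjSS, beside 28.6% and 29.4% of all genes, and 3 and 3 in B6, beside 20.0% and 18.3%. *Serpinb2*, which inhibits the plasminogen activator urokinase, was 16.3 ± 0.705 CPM in AC treated and 3.94 ± 1.53 CPM in control B6 (log2 2.03 ± 0.22 SE, edgeR adjusted p = 5.78e-07). It rose with ACs in SjSS too (1.24). With CpG it rose in B6 (1.34) and fell in SjSS (-1.67, from 16.4 ± 3.84 to 5.13 ± 0.645 CPM). *Plau*, urokinase itself, fell with CpG in B6 from 168 ± 17.7 to 46.0 ± 11.5 CPM (log2 -1.87 ± 0.18, edgeR adjusted p = 2.38e-08). It also fell with CpG in SjSS (-1.24) and with ACs in B6 (-1.17). *Plat*, the tissue-type activator, rose with ACs in SjSS (1.59, adjusted p = 0.02) at under 1 CPM. *Furin*, which cleaves the *Mmp14* proenzyme and is named here after its values were seen, was 212 ± 17.1 CPM in control and 357 ± 10.5 CPM in AC treated SjSS (log2 0.75 ± 0.06, edgeR adjusted p = 2.21e-09). In B6 the value was -0.10 (adjusted p = 0.205), and the interaction passed (0.86 ± 0.08, adjusted p = 1.90e-07).

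Of the 14 ADAM and ADAMTS genes tested, 4 passed as higher and 3 as lower with CpG in B6, and 4 as higher and 4 as lower in SjSS, beside 28.1% and 29.8% of all genes in B6 and 27.8% and 26.4% in SjSS, shares near their own. *Adamts4*, which cleaves aggrecan and versican, rose with CpG from 0.394 ± 0.227 to 14.6 ± 0.853 CPM in B6 (log2 5.15 ± 0.23 SE, edgeR adjusted p = 6.96e-13) and from 0.906 ± 0.175 to 8.13 ± 0.907 CPM in SjSS (3.18 ± 0.21). It also rose with ACs in SjSS, to 4.42 ± 0.448 CPM (2.30 ± 0.22). *Adam19* rose with CpG in both strains, at log2 3.22 ± 0.26 in B6 and 1.95 ± 0.26 in SjSS, and with ACs in both, at 1.08 ± 0.25 in B6 and 1.38 ± 0.27 in SjSS. *Adamts10* fell in all 4 responses, at -1.74 with ACs and -1.32 with CpG in SjSS and at -0.69 and -1.03 in B6. *Hyal1*, a hyaluronidase, fell with CpG in both strains and with ACs in SjSS (-1.42), and *Hpse*, heparanase, fell with CpG in B6 (-1.38) and SjSS (-1.09) and with ACs in B6 (-0.79), rose with ACs in SjSS (0.57), and was 218 ± 26.8 CPM in AC treated SjSS and 69.4 ± 15.3 CPM in AC treated B6 (log2 1.65 ± 0.19, edgeR adjusted p = 7.31e-07). *Hyal1* and *Hpse* come from a separate list of other matrix-degrading enzymes, which also holds *Hyal2*, cathepsin genes and *Cst3*. Of the 9 tested genes of this separate list, 8 passed with CpG in SjSS, all lower, beside 26.4% of all genes.

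Among the 18 matrix genes tested, those that passed between the strains were all higher in SjSS, 9 in control, 12 with ACs and 10 with CpG, beside 9.04%, 24.0% and 10.2% of all genes that passed as higher. *Vcan*, the versican gene, rose with ACs in SjSS from 4.2 ± 0.589 to 16.2 ± 2.29 CPM (log2 1.95 ± 0.15 SE, edgeR adjusted p = 1.14e-09). *Col1a1*, a fibroblast collagen that is also on the stromal marker list, was 83.9 ± 9.60 CPM in AC treated SjSS and 33.5 ± 7.04 CPM in AC treated B6 (1.32 ± 0.32, adjusted p = 0.00212). The stromal marker sum differed between the strains in the same direction, and its part in these counts was not tested.

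AP-1 and ETS factors are known to bind promoters of several MMP genes. Of 12 tested, 10 passed as higher and 1 as lower with ACs in SjSS, beside 28.6% and 29.4% of all genes, and 6 and 1 in B6, beside 20.0% and 18.3%. *Ets2* rose with ACs in SjSS from 57.5 ± 15.6 to 189.9 ± 15.4 CPM and *Junb* from 168 ± 8.66 to 508 ± 38 CPM (log2 1.73 ± 0.14 and 1.60 ± 0.08 SE, edgeR adjusted p = 2.54e-09 and 1.18e-12). Both also rose with ACs in B6, at 0.46 and 0.33. With CpG *Ets2*, *Ets1* and *Junb* were called higher in both strains, with *Ets2* at 1.79 in B6 and 2.46 in SjSS and *Ets1* at 1.34 and 1.82. *Fosl1* rose with ACs in B6 from 1.41 ± 0.514 to 4.89 ± 0.0749 CPM (1.78 ± 0.24, adjusted p = 9.08e-06) and rose by 0.58 in SjSS. *Fosb*, an immediate early gene, fell with CpG from 11.2 ± 7.37 to 0.0523 ± 0.0689 CPM in B6, with a wide spread among the controls.

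The pattern over the 18 samples set the members apart from each other. *Mmp14* and *Mmp19* had the strongest correlation of any pair of members, r = -0.92 (Pearson, log2 CPM), and *Mmp12* and *Mmp8* reached 0.75. These are descriptions over 18 samples that share 6 groups. The genes most like each called member were *Slc11a2* (r = 0.99), *Ehd1* and *Gbgt1* for *Mmp14*, *Itgax* (0.979), *Stac2* and *St8sia4* for *Mmp12*, and *Dbnl* (0.962), *Slc7a2* and *Arf5* for *Mmp13*. For *Mmp9* they were *Lipe* (0.936), *Pttg1ip* and *Syvn1*, and for *Mmp2* *Pik3cd* (0.933), *Nectin2* and *Vnn3*. For *Timp1* they were *Inhba* (0.965), *Tnc* and *Wnt5a*.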

How the data were processed

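RNA of 18 BMDM samples (3 for each strain and treatment) was sequenced. The authors aligned reads to mm10 with STAR and quantified genes with the E/M method of Partek. The authors deposited estimated counts without normalization, and 41.1% were not whole (tolerance 1e-06). The submitters' processing notes also list DESeq2 with version 3.13. Of the gene names in the table, 23 had been turned into dates, none of them a member. Groups were taken from the labels. The members and the gene lists were chosen with earlier results of these data known.

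Estimated counts were rounded to whole numbers. Genes were kept by edgeR's filterByExpr (15789 of 20615), TMM factors were computed, and the quasi-likelihood fit took all 18 samples with 6 group means (R 4.3.3, edgeR 4.0.16, limma 3.58.1). P values were adjusted by Benjamini-Hochberg within each of 9 comparisons: AC and CpG against control in each strain, SjSS against B6 in each condition, and the 2 interactions. A gene passed at an adjusted p under 0.05 and was called when its log2 fold change was also over 1.3 in size. Standard errors were taken as |log2 fold change| over the root of the F statistic. Exon lengths were those of GENCODE M21, promoters those of RefSeq, and correlations were over log2 CPM (prior count 2). The named genes were the 9 members, up to 2 called genes in each direction from each list in the treatment responses and the strain difference with ACs, and the 3 genes most correlated with each called member. Alternatives were DESeq2 1.42.0 (Wald test, size factors), no filter, a filter of 10 counts in 3 samples, a fit to just the groups being compared, a block for the replicate number, leaving out every sample in turn, and, chosen after seeing the data, library totals with no scaling factor. The test was checked on simulated counts. No 2 replicates agreed within sampling noise (chi-square per degree of freedom from 8.15 to 33.8). Figures were drawn in matplotlib 3.10.9, from tables built with pandas 2.3.3 and numpy 2.4.6 under Python 3.11.15. Library totals were 30.7 to 57.1 M counts.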

Additional observations from a re-analysis of the deposited data

Results flagged for a closer look

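The responses of 7 members differed between the strains by edgeR's interaction test, 7 times with ACs and 3 times with CpG. Each value below is the log2 response in SjSS minus that in B6. With ACs it was 2.35 for *Mmp13* (adjusted p = 5.81e-09), 1.81 for *Mmp12* (2.61e-06), 1.42 for *Mmp14* (6.80e-10), 1.2 for *Mmp9* (5.57e-05), 1.19 for *Mmp2* (6.76e-04), 0.73 for *Mmp8* (0.0011) and 0.64 for *Timp2* (0.00138). With CpG it was -1.19 for *Mmp2* (adjusted p = 0.00514), -1.06 for *Mmp9* (0.00227) and -0.94 for *Mmp13* (0.00346). For *Mmp9*, whose control level was 2.27-fold higher in SjSS, the CpG difference went with overlapping levels after CpG, and for *Mmp2* and *Mmp13*, whose control levels did not differ past the test, it went with lower levels in SjSS after CpG. With groups of 3 samples, no sample was tested as standing apart within its group.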

How the results depend on the processing

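DESeq2, either filter, fits of the compared groups and the replicate block (1 number over all samples) left each count of called members unchanged; with the number as a block within strain the count with ACs in B6 went from 1 to 2 (*Timp1*, 1.33). The labels do not say that the numbers pair the samples. Deviations of same-numbered samples of a strain correlated at 0.0198 to 0.264 in 18 pairs (median 0.0901), 9 of them over 0.1. Those of a strain with different numbers correlated at -0.252 to 0.0745 (median -0.0521), and 16 of 18 samples correlated best with their own number. The main tests took no account of the number. Under the within-strain block *Mmp2* (0.31) and *Mmp8* (-0.24) with ACs in SjSS, *Mmp13* with CpG in SjSS (0.24), *Timp1* with CpG in B6 (-0.58) and the *Timp1* AC interaction (-0.78) also passed. With library totals, *Timp2* (-0.37), *Mmp12* (-0.36) and *Mmp2* (-0.094) with ACs in SjSS changed sign, as did *Mmp12* (0.079) and *Mmp8* (0.051) between strains with CpG, *Mmp12* between untreated strains (0.033) and its CpG interaction (0.046); *Mmp19* passed in the strain difference with ACs (-0.36) and the AC interaction (-0.45). The near-zero *Mmp12* values between untreated strains also changed sign with the compared groups (0.0033) and the block (0.0015), and its CpG interaction with no filter (0.010), the compared groups (0.0014) and the within-strain block (0.00065). The cause was not tested.

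Leaving out 1 sample gave 1 to 2 called members with ACs in B6, 2 to 4 with CpG in B6 (4 without CpG B6 replicate 3), 0 to 2 between untreated strains (0 without control B6 replicate 2 or control SjSS replicate 2) and 0 to 1 in the CpG interaction. Sign changes arose only in values that had not passed: *Mmp12* with ACs in SjSS (-0.028 to 0.12), with CpG in B6 (-0.28 to 0.016), between strains with CpG (-0.13 to 0.14) and untreated (-0.18 to 0.10), and its CpG interaction (-0.12 to 0.17); *Mmp2* with CpG in SjSS (-0.13 to 0.089) and between untreated strains (-0.018 to 0.37); *Mmp8* between strains with CpG (-0.14 to 0.082); and *Mmp19* between untreated strains (-0.043 to 0.11). The small strain differences of *Mmp19* (0.22 to 0.34) and *Timp1* (0.71 to 0.99) with CpG, and of *Timp1* with ACs (0.47 to 0.72), each missed the test without several samples. With 3 samples a group, differences of a low member such as *Timp1* are the least precise.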
